A study of Mus musculus with 50 samples.

Results

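The expression of 10 endothelial genes was examined in mouse kidney, liver and skin fibroblasts: Pecam1, Cdh5, Kdr, Flt1, Tek, Emcn, Eng, Plvap, Stab2 and Lyve1. The genes were picked by name as the rows of the gene count tables that carry these symbols, and all 10 were found among 24984 genes. They run from genes of capillaries in general, through genes that are strong in the kidney's capillaries, to the scavenger genes of the liver sinusoid. The values are RNA-seq read counts of whole tissue, given here as CPM (each library's counts divided by its total in M, the total being scaled by the TMM method), together with peaks of open chromatin from ATAC-seq.

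Endothelial cells line every blood vessel, but they are specialised by organ. In the kidney glomerulus they form a fenestrated filter that depends on vascular endothelial growth factor (VEGF) from the neighbouring podocytes. In the liver sinusoid they form an open, fenestrated lining without a continuous basement membrane, and they take up hyaluronan and other waste molecules from the blood through scavenger receptors. Pecam1 and Cdh5 encode the cell-cell adhesion proteins PECAM-1 and VE-cadherin. Kdr and Flt1 encode the VEGF receptors VEGFR-2 and VEGFR-1, and Tek encodes Tie2, the receptor of the angiopoietins. Emcn encodes the sialomucin endomucin, Eng the BMP and TGF-beta co-receptor endoglin, and Plvap the protein of the diaphragms that close fenestrae and caveolae. Stab2 encodes stabilin-2, the main hyaluronan clearance receptor of sinusoidal endothelium, and Lyve1 a hyaluronan receptor of lymphatic and sinusoidal endothelium that some tissue macrophages also carry.

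All samples came from C57BL/6 mice, and the untreated young and old mice were female by the study's methods. RNA-seq of kidney and of liver was available from untreated young mice of 2.5 months (4 libraries per tissue), untreated old mice of 23 to 25 months (4 per tissue), and mice of 20 to 21 months given DMSO or 3C (4 per tissue and treatment). Skin fibroblasts labelled P9 were given DMSO or 3C (3 libraries each), and ATAC-seq covered young and old kidney and liver (3 libraries each). The labels do not say what 3C or P9 is, and give neither dose nor time. Whole organs were taken, so fewer endothelial cells and less RNA per cell cannot be told apart in any result below. The labels do not tie a library to an animal or a culture, so the p values measure the spread between libraries, which may in part be technical.

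The RNA-seq libraries held 14.2 M to 43.7 M counts in genes. The tissue labels were matched by marker genes. The summed level of 8 tubule markers was 10100 to 15700 CPM in the kidney libraries and at most 23.2 CPM in the liver libraries, and the summed level of 8 hepatocyte markers was 141000 to 387000 CPM in liver. In 15 of the 16 kidney libraries the hepatocyte markers had a median of at most 0.109% of their liver level. In old kidney replicate 2 it was 1.28% (summed level 3310 CPM against 207 to 311 CPM in the other 3 old kidneys), which stands apart, and at that share liver RNA would carry 0.98 of its 8.95 CPM of Stab2 and 0.141 of its 2.17 CPM of Lyve1. Results on the old kidney are given without that library as well where it changed a call or where liver RNA could add to the gene. Of the 10 endothelial genes, only 4 exceeded 1 CPM in at least 1 fibroblast library (Eng, Flt1, Plvap and Tek), and Pecam1 and Cdh5, which define endothelium, stayed below 0.7 CPM there.

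The promoters show how far the genes share sequence features. A promoter here is the RefSeq window from 250 bases before to 50 bases after the annotated start on build GRCm38.p6, and 6 of the 10 genes had an entry (Kdr, Flt1, Tek, Emcn, Eng and Stab2). The letters GGAA, the core of the motif of ETS factors such as ERG and FLI1 that are known regulators of endothelial genes, were searched on both strands. The letters AGATAA stand for the GATA factors. The letters TGANTCA, where N is any base, stand for AP-1. The sequences of Emcn (chr3:137340828-137341127, + strand), Flt1 (chr5:147725962-147726261, - strand), Tek (chr4:94739039-94739338, + strand) and Stab2 (chr10:87007893-87008192, - strand) are shown, since Emcn and Flt1 were the genes highest in kidney relative to liver, Stab2 was the member called in the ageing kidney, and Tek held the only GATA match. Each is written 5′ to 3′ on the strand of its gene, and capitals mark GGAA or its reverse complement TTCC and, in Tek, AGATAA.
Emcn: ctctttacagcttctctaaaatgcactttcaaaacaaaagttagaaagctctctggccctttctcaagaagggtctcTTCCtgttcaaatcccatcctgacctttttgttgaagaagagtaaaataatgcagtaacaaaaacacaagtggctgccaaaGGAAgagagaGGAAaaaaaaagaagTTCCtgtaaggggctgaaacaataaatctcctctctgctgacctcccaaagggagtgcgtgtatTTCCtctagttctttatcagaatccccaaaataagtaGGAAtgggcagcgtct
Flt1: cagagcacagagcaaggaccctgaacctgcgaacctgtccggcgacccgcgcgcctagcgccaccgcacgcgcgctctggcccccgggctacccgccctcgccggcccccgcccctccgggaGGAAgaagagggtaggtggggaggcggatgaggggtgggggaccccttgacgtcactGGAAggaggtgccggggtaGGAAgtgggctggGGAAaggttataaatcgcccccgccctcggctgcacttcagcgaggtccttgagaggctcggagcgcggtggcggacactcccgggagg
Tek: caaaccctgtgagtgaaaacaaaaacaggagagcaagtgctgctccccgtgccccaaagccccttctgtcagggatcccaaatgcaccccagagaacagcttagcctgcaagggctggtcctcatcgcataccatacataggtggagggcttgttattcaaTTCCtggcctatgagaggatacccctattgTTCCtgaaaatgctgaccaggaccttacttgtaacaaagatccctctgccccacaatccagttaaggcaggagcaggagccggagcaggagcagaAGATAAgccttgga
Stab2: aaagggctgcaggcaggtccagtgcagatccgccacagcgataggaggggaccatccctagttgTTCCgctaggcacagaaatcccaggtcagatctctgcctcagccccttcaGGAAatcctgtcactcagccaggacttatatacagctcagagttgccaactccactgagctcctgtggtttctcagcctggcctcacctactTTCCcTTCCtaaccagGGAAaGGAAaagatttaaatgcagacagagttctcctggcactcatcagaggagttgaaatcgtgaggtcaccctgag

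GGAA occurred 6 times in the Emcn promoter, 6 times in Stab2, 5 times in Kdr, 4 times each in Flt1 and Eng and 2 times in Tek. Of 32851 mouse promoters 96.0% held at least 1 match, and the median was 3 (quartiles 2 and 5), so only Emcn and Stab2 lay above the upper quartile. AGATAA was found only in Tek, 1 time, against 11.2% of all promoters. TGANTCA was in none of the 6 windows, against 7.81% of all promoters. Emcn and Stab2, which among these 6 genes stood at opposite ends between kidney and liver in the RNA below, thus held equal numbers of the ETS core.

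**Figure D1:**
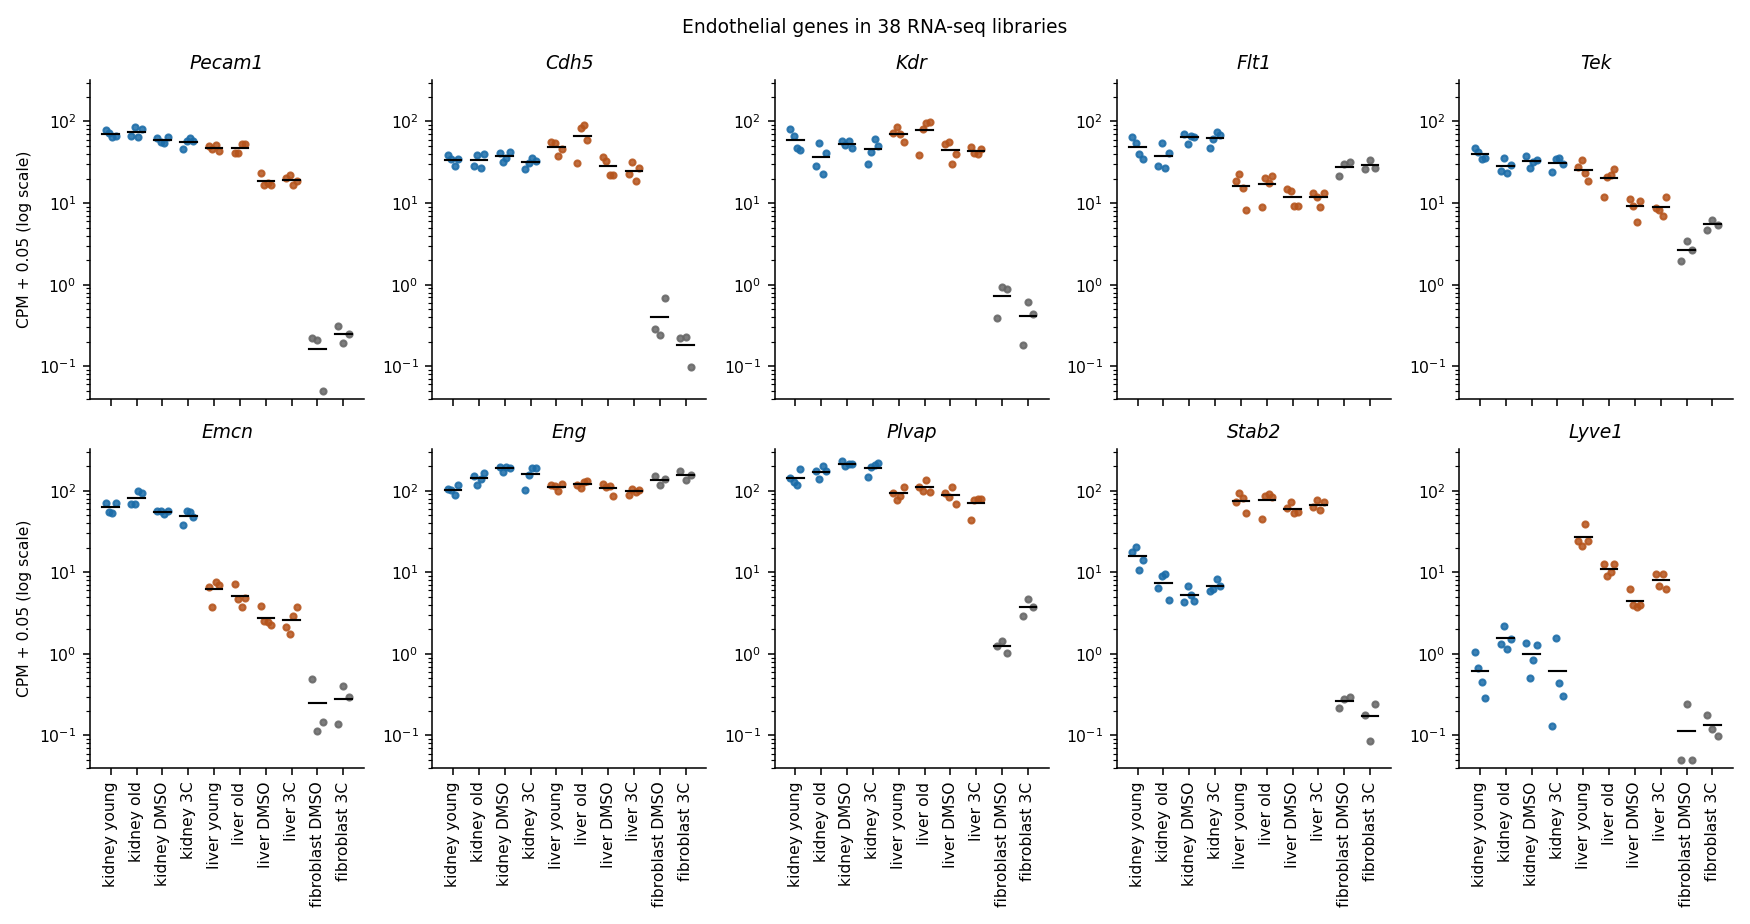
Level of each endothelial gene in every RNA-seq library, as CPM + 0.05 on a log scale, by group. Points are libraries and the short lines are group means. Emcn and Flt1 sit higher in the kidney groups, Stab2 and Lyve1 sit higher in the liver groups, and in fibroblasts Eng (117 to 174 CPM) and Flt1 (21.4 to 33.8 CPM) reach tissue levels.

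When levels were compared between genes, they were set per kb of exon, since a longer gene collects more reads. Plvap led in all 8 tissue groups, at 71.8 ± 15.3 CPM per kb in young kidney and 46.5 ± 7.49 in young liver (SD, n = 4), and Eng was the second in all 8. In young kidney Emcn (11.5 ± 1.87 CPM per kb) and Pecam1 (11.3 ± 1.07) followed and did not differ beyond their spread, and Stab2 (1.79 ± 0.495) and Lyve1 (0.193 ± 0.112) closed the order. Tek (8.47 ± 1.25), Cdh5 (8.1 ± 1.02) and Kdr (6.64 ± 1.84 CPM per kb) lay between, within their spread of each other. In young liver Cdh5 (11.5 ± 2.0 CPM per kb), Lyve1 (9.29 ± 2.69) and Stab2 (8.57 ± 1.94) followed within their spread of each other, and Flt1 (1.2 ± 0.454) and Emcn (1.14 ± 0.31) were last. Emcn was thus the third of 10 in every kidney group and the last of 10 in every liver group, and Stab2 was the ninth in every kidney group and between the third and the fifth in every liver group. In fibroblasts Eng was highest (33.2 ± 4.15 CPM per kb with DMSO, SD, n = 3) and Flt1 came next (2.06 ± 0.419).

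The first comparison set kidney against liver within each age or treatment. A gene is said to be called where edgeR's quasi-likelihood test gave a Benjamini-Hochberg adjusted p under 0.05 over all genes tested and the fold was above 2. In young mice 2 of 10 endothelial genes were higher in kidney (Emcn and Flt1), where 25.7% of all genes were, and 2 were higher in liver (Stab2 and Lyve1), where 16.9% of all genes were. In old mice 2 were higher in kidney (Emcn and Flt1, background 24.6%) and 3 in liver (Stab2, Lyve1 and Kdr, background 16.1%). With DMSO 5 were higher in kidney (Emcn, Flt1, Pecam1, Tek and Plvap, background 26.6%) and 2 in liver (Stab2 and Lyve1, background 15.7%). With 3C the same 5 genes were higher in kidney (background 26.0%) and the same 2 in liver (background 16.1%). The shares furthest above the background were the kidney-high ones with DMSO and 3C (5 of 10 in each) and the liver-high one in old mice (3 of 10). With so few genes, and no test of the shares, these counts are no result about the members. The genes are therefore described by size and direction.

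Emcn was the gene with the largest excess in kidney in all 4 comparisons. Its level in young kidney was 71.5, 54.5, 52.9 and 70.8 CPM and in young liver 6.6, 3.74, 7.55 and 6.84 CPM. Every kidney library was above every liver library, by a mean of 10.1-fold (log2 difference 3.34, SE 0.22, adjusted p = 6.26e-08, edgeR). In old mice Emcn was at 67.7, 67.9, 99.0 and 93.0 CPM in kidney and 7.05, 4.7, 3.72 and 4.82 CPM in liver (16.2-fold, log2 4.02, SE 0.24, adjusted p = 8.55e-07, edgeR). The log2 difference was 4.32 with DMSO and 4.29 with 3C, again without overlap of the tissues.

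Flt1, whose product binds VEGF but signals weakly, was the other gene called higher in kidney in all 4 comparisons. It was at 65.3, 55.2, 39.5 and 34.5 CPM in young kidney and at 18.6, 22.7, 15.3 and 8.22 CPM in young liver (2.99-fold, log2 1.58, SE 0.28, adjusted p = 0.000393, edgeR). In old mice it was at 28.6, 54.0, 26.9 and 41.4 CPM in kidney and 8.9, 20.0, 17.6 and 21.7 CPM in liver. The tissues did not overlap at either age, but the old difference was smaller (log2 1.14, SE 0.31, adjusted p = 0.0111, edgeR) and fell under a fold of 2 without old kidney replicate 2 (log2 0.93) or without old liver replicate 1 (log2 0.92). With DMSO and 3C it was 5.4-fold and 5.32-fold higher in kidney.

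Stab2 was higher in liver in all 4 comparisons. Its level was 17.5, 20.6, 10.7 and 13.9 CPM in young kidney and 72.0, 94.2, 80.4 and 53.6 CPM in young liver, a fold of 4.77 (log2 -2.26 for kidney over liver, SE 0.22, adjusted p = 2.34e-06, edgeR). In old mice it was 6.33, 8.95, 9.34 and 4.47 CPM in kidney against 45.1, 86.2, 90.4 and 84.7 CPM in liver. The fold was 10.6 in old mice (log2 -3.4, and -3.52 without old kidney replicate 2), 11.7 with DMSO and 9.92 with 3C, and no kidney library reached the lowest liver library of its own age or treatment.

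Lyve1 was the gene with the largest excess in young liver. It was at 0.997, 0.621, 0.404 and 0.237 CPM in young kidney, which rests on 5 to 23 reads per library, and at 24.3, 21.2, 38.7 and 24.2 CPM in young liver. The liver level was 46.5-fold the kidney level (log2 -5.54 for kidney over liver, SE 0.36, adjusted p = 5.05e-08, edgeR). In old mice the fold was 7.28 (log2 -2.86, SE 0.28, adjusted p = 1.64e-05, edgeR), and the log2 value was -3.08 without old kidney replicate 2. The fold was 4.59 with DMSO and 13.7 with 3C. The 3C value leans on 1 kidney library, as the 4 were at 0.0817, 1.52, 0.385 and 0.256 CPM. Without kidney 3C replicate 2 the log2 difference went from -3.77 to -4.98. The tissues did not overlap in any of the 4 comparisons.

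The general endothelial genes differed less and not always one way. Pecam1, Tek and Plvap were higher in kidney in young mice at an adjusted p under 0.05 but under a fold of 2 (log2 0.56, 0.63 and 0.62), and Pecam1 and Plvap also in old mice (log2 0.65 and 0.64), without overlap of the tissues for these genes and ages. By the adjusted p alone, 5 genes were higher in young kidney (background 35.1%) and 3 in young liver (background 30.2%), 4 and 4 in old mice (30.1% and 24.7%), 7 and 2 with DMSO (38.7% and 33.2%) and 6 and 2 with 3C (37.7% and 32.4%). With DMSO the same 3 genes were at log2 1.68 (Pecam1), 1.82 (Tek) and 1.29 (Plvap). In liver, Pecam1 and Tek had lower levels in the DMSO libraries than in the untreated ones (16.5 to 23.6 against 40.7 to 53.5 CPM and 5.81 to 11.2 against 11.7 to 33.3 CPM), while Plvap overlapped (68.8 to 110.0 against 77.2 to 134 CPM). These series differ in age and in the tally of reads aligned at more than 1 place that their files carry, so this is a description without a test.

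Cdh5 and Kdr had no fixed order between the tissues. Cdh5 was at 28.3 to 38.7 CPM in young kidney and 37.7 to 56.2 CPM in young liver (log2 -0.51, SE 0.16, adjusted p = 0.0125, edgeR), and the tissues overlapped. In old mice the value was -0.98 on the log2 scale (SE 0.31, adjusted p = 0.0219, edgeR), under a fold of 2. Cdh5 was called in edgeR without old kidney replicate 2 (-1.05, adjusted p = 0.0306) or 4 (-1.06, 0.0345). It was also called without old liver replicate 1 (-1.22, 0.000861) or 4 (-1.04, 0.0342), and with the exon length trend removed (-1.08, 0.00883). Over 16 alternatives the value ran from -1.22 to 0.08 and its adjusted p from 0.000861 to 0.851. With DMSO the value was 0.42 (SE 0.17, adjusted p = 0.0478, edgeR), and over 16 alternatives it ran from 0.27 to 1.39 and its adjusted p from 5.91e-05 to 0.162. Kdr was at 28.7, 54.4, 22.5 and 40.8 CPM in old kidney and 38.9, 79.8, 95.5 and 97.4 CPM in old liver, with overlap (log2 -1.09, SE 0.34, adjusted p = 0.0205, edgeR), and its adjusted p in young mice was 0.296. The old Kdr call was lost without old kidney replicate 1 or 3 or without old liver replicate 3 or 4 (log2 -0.96, -0.89, -0.99 and -0.97, adjusted p = 0.0688, 0.0592, 0.0529 and 0.0556, edgeR), and over 16 alternatives the adjusted p ran from 0.000987 to 0.981. Eng was at 88.7 to 118 CPM in young kidney and 98.5 to 121 CPM in young liver (log2 -0.13, SE 0.13, adjusted p = 0.413, edgeR), and in old mice the value was 0.24 (SE 0.16, adjusted p = 0.218, edgeR), both with overlap. With DMSO Eng was at 169 to 194 CPM in kidney and 86.3 to 119 CPM in liver, without overlap (log2 0.8, SE 0.11, adjusted p = 4.28e-05, edgeR). With 3C it was at 102 to 188 CPM and 88.4 to 106 CPM, with overlap (log2 0.7, SE 0.18, adjusted p = 0.00523, edgeR), and both values are under a fold of 2.

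Scaling matters for these comparisons of kidney and liver. With library size alone in place of TMM, the median log2 difference over all genes moved from 0.08 to 1.16 in young mice, from 0.03 to 1.12 in old mice, from 0.07 to 1.06 with DMSO and from 0.07 to 1.05 with 3C. The share of kidney-high genes among all calls rose from 60.4% to 86.3%, from 60.5% to 87.4%, from 62.9% to 86.7% and from 61.8% to 85.8%. More members were then called higher in kidney in each comparison, with the counts given in the last section. Under that scaling Cdh5, Kdr and Eng turned to higher in young kidney (log2 0.56, 0.83 and 0.95), but they stayed below the moved median (-0.6, -0.32 and -0.2 relative to it). In old mice Kdr moved to -0.01, which was -1.13 relative to the moved median. Emcn and Flt1 stayed above it (3.27 and 1.48 in young mice) and Stab2 and Lyve1 below (-2.35 and -5.61).

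**Figure D2:**
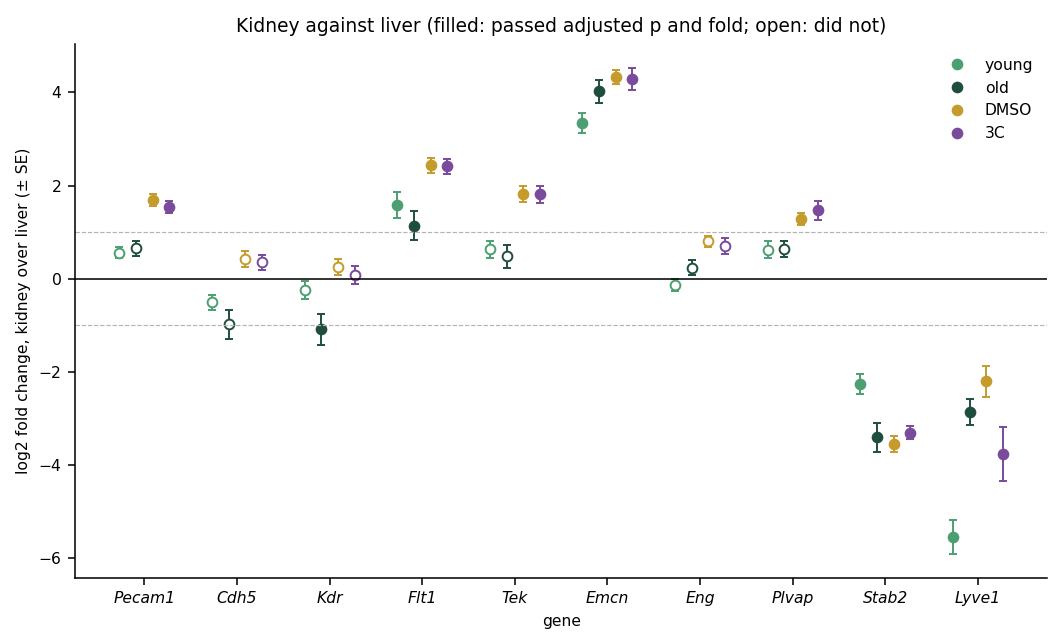
Log2 difference of kidney over liver for each endothelial gene in the young, old, DMSO and 3C comparisons, with bars of 1 standard error from the edgeR fit, filled points for called genes and dashed lines at a fold of 2. Emcn (3.34 to 4.32) and Flt1 (1.14 to 2.43) lie above 0 in all 4 and Stab2 (-2.26 to -3.54) and Lyve1 (-2.2 to -5.54) below, while Cdh5 and Kdr lie on both sides.

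The other genes of these pathways were read from lists by role. Of 14 liver sinusoid genes 13 were tested in young mice, and 12 were higher in liver and 1 in kidney, with a median log2 difference of -3.66 against 0.08 over all genes. Clec4g, a lectin of sinusoidal endothelium, was at 0.02 CPM in kidney and 179 CPM in liver, and Gata4, the transcription factor that sets the sinusoidal fate, at 0.0144 and 29.8 CPM. Oit3 (log2 -7.33) and Dnase1l3 (log2 -6.95), secreted products of sinusoidal cells, were also higher in liver. Wnt9b, which is known from the kidney's collecting duct as well, was the exception (log2 1.51). Of 7 kidney endothelial genes 6 were tested, and 4 were higher in kidney (Igfbp5 at log2 4.65, Igfbp3 at 2.59, Plat at 5.84 and Pi16 at 5.96). The remaining 2, Ehd3 (log2 -1.64) and Tbx3 (log2 -2.57), were higher in liver although the list holds them for their place in glomerular endothelium. The list summed to 668 to 923 CPM in young kidney and 200 to 248 CPM in young liver. In fibroblasts with DMSO it summed to 530 to 617 CPM, so its genes are not limited to endothelium here. The part of other cells in the kidney difference was not tested. Old mice, DMSO and 3C gave 11, 9 and 9 sinusoid genes higher in liver, and 4 kidney endothelial genes higher in kidney in each.

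Among 10 tested ligands and receptors of the VEGF and angiopoietin pathway, 4 were higher in young kidney and 1 in young liver (median log2 0.36). Angpt1 (log2 3.39) and Angpt2 (log2 3.46), the ligands of the Tek product, were at 20.1 ± 3.49 and 24.8 ± 7.36 CPM in kidney and at 1.89 ± 0.888 and 2.28 ± 1.4 CPM in liver (SD, n = 4). Flt4, the receptor of lymphatic and sinusoidal VEGF-C signalling, was higher in liver (log2 -1.5). Of 12 tested genes of the endoglin pathway 2 were higher in kidney and 2 in liver. The ligand Gdf2 (BMP9), which is made in liver, was listed at 0 in young kidney and was at 44.1 ± 4.21 CPM in young liver, while its receptor Acvrl1 was higher in kidney (log2 1.23, SE 0.17). Of 6 tested genes for hyaluronan handling 3 were higher in liver (Cd44, Stab1 and Hyal1) and 1 in kidney (Has3). Of 12 endothelial transcription factors 5 were higher in kidney, with Maf, Gata2, Nr2f2 and Klf4 as the 4 of smallest p, and 1 in liver (Hhex, log2 -6.07).

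Markers of other cell types moved with the tissue too. All 11 macrophage and Kupffer cell markers were higher in young liver, with a summed level of 1120 to 1810 CPM against 90.9 to 120.0 CPM in young kidney, and Clec4f and Vsig4, which define Kupffer cells, were at 0 in every young kidney library. Lymphatic markers summed to 32.1 to 42.0 CPM in young kidney and 130.0 to 266 CPM in young liver, but Prox1 is also a hepatocyte gene and Ccl21a was at 0 in every library of the series. Mural cell markers went the other way, at 220 to 251 CPM in young kidney and 90.5 to 126 CPM in young liver. DESeq2 called 5 of them higher in kidney and 0 in liver. The part of macrophages or lymphatic vessels in the Lyve1 difference was not tested.

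To see whether genes differ relative to the rest of the endothelium, reads of each gene were divided by those of Cdh5 in the same library, as a description without a test. Emcn had 1.58 to 3.72 reads per Cdh5 read in the 8 untreated kidney libraries and 0.0407 to 0.226 in the 8 untreated liver libraries. For Stab2 the ratio was 0.377 to 0.597 in young kidney, 0.111 to 0.351 in old kidney, 1.17 to 2.13 in young liver and 0.99 to 1.45 in old liver. Lyve1 had 0.00684 to 0.0565 reads per Cdh5 read in the untreated kidney libraries and 0.108 to 1.02 in the untreated liver libraries. For these 3 genes the order of the tissues was the same with both divisors. It was not for Eng in young mice, with 2.73 to 3.39 reads per Cdh5 read in kidney and 2.07 to 2.63 in liver but mean levels of 103 and 112 CPM. The mean of Kdr in young mice turned as well (1.75 and 1.48 reads per Cdh5 read against 59.9 and 70.6 CPM), with overlap on both scales.

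The second comparison set old against young kidney. Of the 10 endothelial genes, Stab2 fell (background of all genes lower at 0.407%) and 0 were called higher, where 5.68% of all genes were. In the same edgeR fit 3 of the 10 were higher and 2 lower at an unadjusted p under 0.05 (background 16.4% and 13.6%), and DESeq2 called 1 higher and 1 lower (background 6.47% and 0.724%). By the adjusted p alone 1 was higher (Eng, background 8.15%) and 1 lower (Stab2, background 3.36%). The median log2 change of the 10 genes was 0.08 against 0.02 over all genes, and -0.01 without old kidney replicate 2.

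Stab2 was at 17.5, 20.6, 10.7 and 13.9 CPM in young kidney and 6.33, 8.95, 9.34 and 4.47 CPM in old kidney. The highest old library was below the lowest young library, and the level fell by 1.07 on the log2 scale (SE 0.27, adjusted p = 0.0304, edgeR). The call was not firm. It was lost when young kidney replicate 1 (adjusted p = 0.0786, edgeR) or 2 (0.102) or old kidney replicate 1 (0.078) or 4 (0.076) was left out, and with the trend over exon length removed (log2 -0.84, 0.0528), over a range of 0.0015 to 0.102 in the 16 alternatives. Without old kidney replicate 2, the library with hepatocyte RNA, the change was -1.22 (adjusted p = 0.015, edgeR), and the sign was negative in all 16.

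Lyve1 took the other direction without being called. It was at 0.997, 0.621, 0.404 and 0.237 CPM in young kidney and 1.26, 2.17, 1.11 and 1.49 CPM in old kidney, and the groups did not overlap (log2 1.46, SE 0.45, adjusted p = 0.0626, edgeR). The old values rest on 29 to 91 reads per library. Over 16 alternatives the adjusted p ran from 0.019 with DESeq2 to 0.156, and it was also under 0.05 when young kidney replicate 1 was left out (0.0435). With old kidney replicate 2 left out the change was 1.21 (adjusted p = 0.0879, edgeR).

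The capillary genes changed less in the ageing kidney. Eng was at 106, 101, 88.7 and 118 CPM in young kidney and 153, 117, 139 and 165 CPM in old kidney, overlapping by 1 library (1.44-fold, log2 0.52, SE 0.14, adjusted p = 0.034, edgeR), and its fold of under 2 keeps it from being called. Over 16 alternatives its adjusted p ran from 0.00648 to 0.108, and it was above 0.05 without young kidney replicate 1, 2 or 3 or old kidney replicate 1 or 4 (0.0811, 0.108, 0.104, 0.0817 and 0.104, edgeR). Emcn had log2 0.44 (SE 0.17, adjusted p = 0.114, edgeR) and Plvap 0.31 (SE 0.16, adjusted p = 0.233, edgeR). The receptors had negative values, with Kdr at -0.64 (SE 0.29, adjusted p = 0.168), Tek at -0.45 (SE 0.17, adjusted p = 0.116) and Flt1 at -0.3 (SE 0.27, adjusted p = 0.48) in edgeR's test. Without old kidney replicate 2 Kdr (-0.92, adjusted p = 0.0292) and Tek (-0.6, adjusted p = 0.0204) passed the adjusted p in edgeR but stayed under a fold of 2, where over 16 alternatives the adjusted p ran from 0.0292 to 0.373 and from 0.0204 to 0.269. Pecam1 (log2 0.13) and Cdh5 (log2 0.03), the junction genes, had the values nearest to 0.

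Of 15 other general endothelial genes 1 rose in old kidney (Ecscr, 4.89 ± 0.363 to 10.6 ± 2.78 CPM, log2 1.16), and the list had a median of 0.3 against 0.02 over all genes. Of 7 kidney endothelial genes edgeR called 0 and DESeq2 0. By the adjusted p alone 1 was higher (Pi16, 10.3 ± 0.565 to 14.2 ± 1.95 CPM, log2 0.52) and 1 lower (Igfbp3, 266 ± 14.3 to 147 ± 8.4 CPM, log2 -0.8), which are also the 2 genes with an unadjusted p under 0.05. Of 11 tested liver sinusoid genes 2 rose, Dnase1l3 (0.742 ± 0.255 to 3.69 ± 0.945 CPM, log2 2.36) and Mrc1 (5.02 ± 1.33 to 16.7 ± 11.2 CPM, log2 1.81), and the median was 0.82. The groups overlapped for Mrc1, where old kidney replicates 2 and 4 were at 26.8 and 25.8 CPM and replicates 1 and 3 at 6.37 and 7.62 CPM. Mrc1 is a macrophage gene as well, and Dnase1l3 is known from dendritic cells. Of the 11 genes 9 had values above 0. Without old kidney replicate 2, in which liver RNA could add to these genes, Oit3 no longer passed the filter, and 7 of the other 10 had values above 0 with a median of 0.8.

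In the pathways around the members, Vegfd rose (log2 1.47) and Angpt1, the ligand of the Tek product, had a lower level in every old library but was under a fold of 2 (log2 -0.71, SE 0.19). In the endoglin pathway Tgfb1 rose (10.9 ± 0.364 to 21.0 ± 5.19 CPM, log2 1.0) and Smad9 fell (3.51 ± 0.972 to 0.876 ± 0.221 CPM, log2 -1.97). Cd44, a hyaluronan receptor of leukocytes, rose (log2 2.99), and of 12 endothelial transcription factors Hhex rose (0.971 ± 0.362 to 2.98 ± 0.641 CPM, log2 1.69). Without old kidney replicate 2 all 8 of these calls in the endothelial and pathway lists stood, with Dnase1l3 at 2.26, Mrc1 at 1.48 and Hhex at 1.61 (adjusted p = 0.00431, 0.0429 and 0.0154, edgeR).

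Markers of blood cells moved with age in the same libraries. All 7 tested macrophage markers rose (C1qa at log2 2.78), and the summed level of the 11 went from 90.9 to 120.0 CPM in young kidney to 322 to 592 CPM in old kidney. Leukocyte and platelet markers rose in 5 of 6 (sum 13.3 to 17.5 CPM against 37.8 to 65.0 CPM). Lymphatic markers were called in 0 of 5 by edgeR and by DESeq2, with 1 at an unadjusted p under 0.05 (Pdpn, a podocyte gene as well, log2 0.98, adjusted p = 0.0107, edgeR), with sums of 32.1 to 42.0 CPM and 31.5 to 54.5 CPM, and Prox1 at 7.54 to 11.5 CPM and 6.01 to 12.7 CPM. Of 7 fibroblast markers 2 rose, Thy1 (log2 1.92) and Lum (log2 1.57), with a list median of 0.51 and sums of 282 to 327 CPM in young and 264 to 574 CPM in old kidney. Tubule markers summed to 13300 to 15700 CPM in young and 11400 to 12700 CPM in old kidney, without overlap. Of the 8, edgeR called 0, or 1 lower without old kidney replicate 2. By the adjusted p alone 2 were lower (background 3.36%). The part of macrophages, lymphatic vessels or fibroblasts in the kidney Lyve1 values, or of macrophages in Mrc1, was not tested. Nor was it tested which cells carry Hhex in the whole kidney.

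The third comparison set old against young liver. Of the 10 endothelial genes, Lyve1 fell (background 0.439%) and 0 rose (background 1.69%). In the same edgeR fit 0 were higher at an unadjusted p under 0.05 (background 9.99%), and DESeq2 called 0 higher (background 3.85%). Lyve1 was at 24.3, 21.2, 38.7 and 24.2 CPM in young liver and 12.7, 8.9, 10 and 12.6 CPM in old liver. The groups did not overlap, and the level fell by 1.28 on the log2 scale (2.43-fold, SE 0.23, adjusted p = 0.0182, edgeR). The call was lost without young liver replicate 1 (adjusted p = 0.0556, edgeR) or 3 (0.0548) and without old liver replicate 2 (0.0509) or 3 (0.0601). It was also lost with the replicate block (log2 -1.26, adjusted p = 0.0503, edgeR). Over 16 alternatives the change ran from -1.39 to -1.07 and the adjusted p from 3.16e-05 to 0.0601.

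The other sinusoidal member did not move with it. Stab2 was at 72.0, 94.2, 80.4 and 53.6 CPM in young liver and 45.1, 86.2, 90.4 and 84.7 CPM in old liver (log2 0.04, SE 0.24, adjusted p = 0.981, edgeR), and old liver replicate 1 was the lowest of all 8. The remaining 8 genes had log2 values of -0.34 (Tek), -0.28 (Emcn), 0.0 (Pecam1), 0.09 (Flt1), 0.12 (Eng), 0.16 (Kdr), 0.26 (Plvap) and 0.46 (Cdh5), with adjusted p values of 0.567 to 0.999 in edgeR. Cdh5 was at 31.2, 82.6, 91.2 and 58.6 CPM in old liver, which is a wider spread than its 37.7 to 56.2 CPM in young liver. Old liver replicate 1 was the lowest of its group for 6 of the 10 genes.

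Of 14 liver sinusoid genes 0 were called in the ageing liver (median -0.07 against 0.0 over all genes, 0 higher and 1 lower at an unadjusted p under 0.05 in edgeR, 0 by DESeq2). Clec4g was at 179 ± 59.9 CPM in young and 186 ± 78.6 CPM in old liver, and Gata4 at 29.8 ± 3.45 and 25.9 ± 5.52 CPM. In the endoglin pathway Smad9 fell (22.5 ± 4.6 to 4.32 ± 1.9 CPM, log2 -2.36). Of 11 macrophage and Kupffer cell markers 3 rose (Vsig4, Cd68 and Cd5l), and their sum was 1120 to 1810 CPM in young and 1640 to 3280 CPM in old liver. Of 5 tested leukocyte and platelet markers 2 rose (S100a8 and Cd79a, list median 1.31), and the sum of the list was 25.6 to 29.8 CPM in young and 46.3 to 163 CPM in old liver, without overlap. The part of these cells in the Lyve1 values was not tested. Of 5 tested lymphatic markers 0 were called, 0 had an unadjusted p under 0.05 in edgeR and DESeq2 called 0, and their sum was 130.0 to 266 CPM in young and 90.3 to 238 CPM in old liver.

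An interaction term, fitted over the 16 untreated libraries at once, tested if kidney and liver changed unequally with age. Of the 10 endothelial genes 1 passed at an adjusted p under 0.05, where 1.72% of all genes did. This was Lyve1, whose change in liver less that in kidney was -2.68 on the log2 scale (SE 0.45, adjusted p = 0.0074, edgeR), and it passed in all 22 alternatives (-3.14 to -2.43, adjusted p up to 0.0431). For Stab2 the difference was 1.15 (SE 0.38, adjusted p = 0.159, edgeR), which passed only without old liver replicate 1 (1.34, adjusted p = 0.0479, edgeR) and ran from 0.0479 to 0.342 over 22 alternatives. Dnase1l3 and Hhex, from the sinusoid and transcription factor lists, had negative differences as well (-2.4 and -1.71, adjusted p = 0.00161 and 0.0096, edgeR), and Igfbp3 from the kidney endothelial list a positive one (0.82, adjusted p = 0.0399, edgeR). Among the marker lists 5 of 11 macrophage and Kupffer cell markers had a negative difference (C1qa, C1qb, C1qc, Cd5l and Cd68, list median -1.85), the fibroblast marker Lum had one too (-1.78), and the podocyte marker Wt1 had a positive one (2.02). Without old kidney replicate 2 Lyve1, Dnase1l3, Hhex, Lum, Wt1 and C1qa still passed (Lyve1 at -2.51, adjusted p = 0.0113, edgeR), and Igfbp3 and the other 4 macrophage markers did not. The part of macrophages in the Lyve1 difference was not tested.

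**Figure D3:**
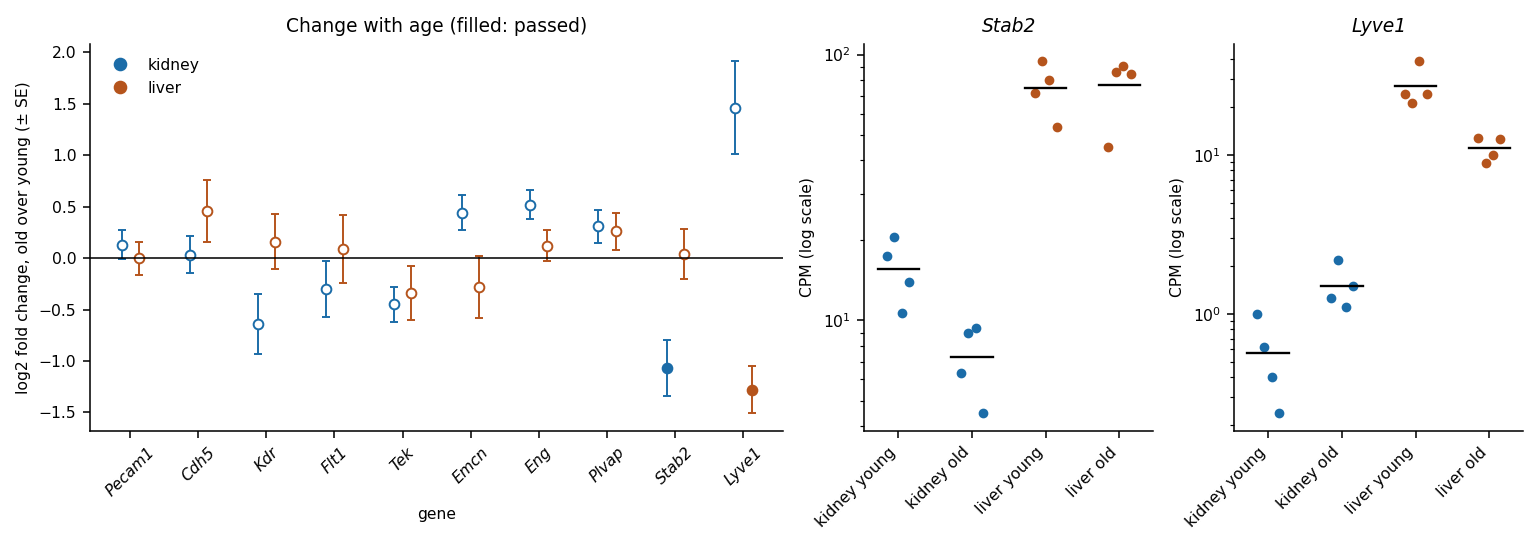
Left, log2 change from young to old for each endothelial gene in kidney and in liver, with bars of 1 standard error from the edgeR fit and filled points for called genes. Right, the Stab2 and Lyve1 levels of each library in CPM on a log scale, with lines at the group means. Stab2 is at -1.07 in kidney and 0.04 in liver, and Lyve1 is at 1.46 in kidney and -1.28 in liver.

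Open chromatin was read from the ATAC-seq peaks, called in each library on its own. A gene was counted as having a promoter peak where a peak touched the 1 kb on either side of its annotated start on GRCm38. Of the 10 genes, 6 had one in all 3 libraries of young kidney (background of 24534 genes 56.9%), 7 of old kidney (55.1%), 4 of young liver (51.1%) and 7 of old liver (50.6%). These counts are near the background and are no result about the members. At a −log10 q of at least 5 they were 1, 1, 0 and 2, where 50.5%, 48.1%, 38.1% and 38.9% of all genes had such a peak in all 3 libraries. Stab2 (10:86841198-87008025, - strand) had no promoter peak in 9 of the 12 libraries and had one in all 3 old liver libraries, with a fold enrichment over background of 3.04, 3.2 and 3.34. Lyve1 (7:110850607-110863239, - strand) had none in the 6 kidney libraries and one in all 6 liver libraries, at 3.37, 2.06 and 3.56 in young and 3.36, 3.33 and 4.9 in old liver. Emcn had one in all 6 kidney libraries (2.68 to 5.36) and in 5 of 6 liver libraries.

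Across the whole gene body Stab2 had 8, 8 and 8 peaks in young kidney, 0, 4 and 0 in old kidney, 20, 23 and 17 in young liver and 22, 17 and 26 in old liver. Old kidney was below young kidney in every library, and both kidneys were below the livers, while the livers overlapped with each other. With 3 libraries against 3 the exact permutation test, two-sided, gave p = 0.1 for old against young kidney, the smallest it can give. Of the 10 endothelial genes Stab2 was the only 1 with fewer peaks and no overlap in old kidney, where 8.94% of 19185 genes with a peak were, so this count is near the background and is no result about the members. The mean number of peaks was lower in old kidney for 9 of the 10, and the share of all genes with a lower mean was not counted. Between old and young liver 0 of 10 had fewer peaks without overlap (background 3.96%). Against liver, 2 had fewer peaks without overlap in young kidney (Stab2 and Lyve1, background 8.21%) and 3 in old kidney (Stab2, Lyve1 and Cdh5, background 9.25%).

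The number of peaks in a library bears on these counts. Young kidney libraries held 115836 to 128395 peaks and old kidney libraries 93072 to 108970, so that the mean of the old was 83.1% of the young, while Stab2 had 1.33 ± 2.31 against 8.0 ± 0.0 peaks (SD, n = 3). In liver the old mean was 97.0% of the young. The part of the lower number of peaks in the Stab2 count was not tested. The Stab2 peaks of all libraries merged into 53 intervals. Of these 11 were found in young kidney, 5 of them in all 3 libraries, and 8 of the 11 were also found in liver and 4 in old kidney. Old kidney held 4 intervals, young liver 31 and old liver 41.

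**Figure D4:**
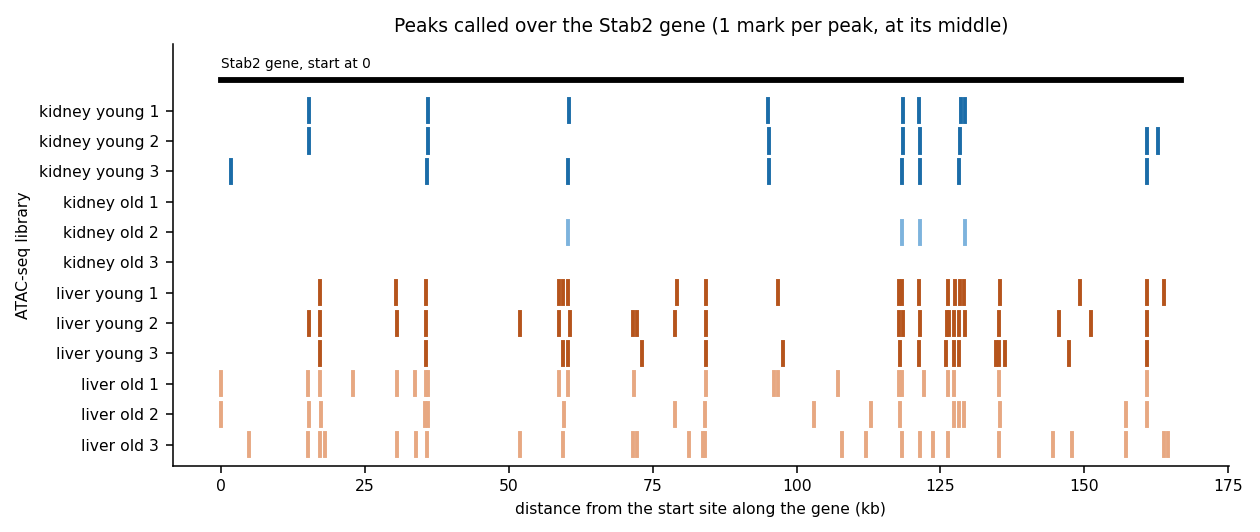
ATAC-seq peaks over the Stab2 gene body by library, with 1 mark at the middle of each peak, plotted by distance from the start in kb, for 3 libraries in each of 4 groups. Young kidney shows 8 peaks in each library, old kidney 0, 4 and 0, and the liver libraries 17 to 26.

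The fourth comparison set 3C against DMSO in mice of 20 to 21 months. In kidney edgeR called 0 of the 10 endothelial genes and 0 of all genes (background 0.0%). At an unadjusted p under 0.05 there were 1786 genes, 1 of them a member (Cdh5, log2 -0.28), and DESeq2 called 8 genes and 0 members. In liver edgeR called 0 members and 0 genes (background 0.0%), with 436 genes and 1 member (Lyve1) at an unadjusted p under 0.05 and 2 genes and 0 members by DESeq2. The interaction of 3C and tissue also gave 0 genes (background 0.0%), 554 at an unadjusted p under 0.05 with 1 member (Lyve1), and 0 by DESeq2.

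The log2 values of the members with 3C in kidney lay between -0.76 (Lyve1) and 0.36 (Stab2), with Eng at -0.26, Kdr at -0.24, Plvap at -0.19, Emcn at -0.17, Pecam1 at -0.11, Tek at -0.08 and Flt1 at -0.05. The kidney Lyve1 value rests on 2 to 44 reads per 3C library, and 3C replicate 2 (1.52 CPM) stood above the others (0.0817, 0.385 and 0.256 CPM). In liver they lay between -0.37 (Plvap) and 0.82 (Lyve1), with Cdh5 at -0.21, Eng at -0.15, Emcn at -0.11, Kdr and Tek at -0.06, Flt1 at -0.02, Pecam1 at 0.04 and Stab2 at 0.14. Lyve1 had the largest value in liver. It was at 6.17, 3.91, 3.66 and 3.9 CPM with DMSO and 9.34, 6.71, 9.53 and 6.17 CPM with 3C, so that the lowest 3C library was level, to 3 digits, with the highest DMSO library (log2 0.82, SE 0.25, unadjusted p = 0.00655 and adjusted p = 1.0 in edgeR). In kidney Stab2 was at 4.32, 6.72, 5.2 and 4.4 CPM with DMSO and 5.92, 6.18, 8.13 and 6.65 CPM with 3C, which overlap (log2 0.36, SE 0.17, adjusted p = 0.426, edgeR). Kidney 3C replicate 1 was the lowest of its 4 libraries for all 10 genes, with Eng at 102 CPM against 155 to 188 CPM in the other 3. No endothelial list and no marker list had a called gene with 3C in either tissue, as no gene at all was called by edgeR.

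The fifth comparison set 3C against DMSO in skin fibroblasts, connective tissue cells that are not endothelial. Of the 10 genes 5 passed the filter on low counts (Tek, Plvap, Eng, Flt1 and Kdr). Of these 2 rose (Plvap and Tek, background 1.23%) and 0 fell (background 0.632%, with 0 at an unadjusted p under 0.05 in edgeR and 0 by DESeq2). Pecam1, Cdh5, Emcn, Stab2 and Lyve1 had 0 to 13 reads in every fibroblast library and were not tested.

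Plvap was at 1.19, 1.4 and 0.971 CPM with DMSO and 2.86, 4.69 and 3.68 CPM with 3C. The groups did not overlap (3.15-fold, log2 1.65, SE 0.27, adjusted p = 0.00923, edgeR), and the call was lost only without DMSO replicate 3 (adjusted p = 0.0567, edgeR, range 2.39e-05 to 0.0567 over 14 alternatives). Tek was at 1.91, 3.38 and 2.62 CPM with DMSO and 4.69, 6.24 and 5.35 CPM with 3C, again without overlap (2.07-fold, log2 1.05, SE 0.24, adjusted p = 0.0385, edgeR). Its call was lost without DMSO replicate 1 or 3 or 3C replicate 2 or 3 (adjusted p = 0.0941, 0.134, 0.156 and 0.0556, edgeR), and it ran from 0.00371 to 0.156 over 14 alternatives. Plvap stayed far below its tissue levels, the lowest of which was 44.1 CPM. Tek with 3C overlapped the liver with DMSO (5.81 to 11.2 CPM) and lay below all other tissue groups.

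Eng, the most abundant of the 10 in fibroblasts, was at 150.0, 117 and 137 CPM with DMSO and 174, 136 and 157 CPM with 3C (log2 0.22, SE 0.14, adjusted p = 0.422, edgeR). Flt1 was at 21.4, 30.4 and 31.8 CPM with DMSO and 26.1, 33.8 and 26.7 CPM with 3C (log2 0.06, SE 0.17, adjusted p = 0.873, edgeR), and Kdr at 0.341 to 0.877 CPM and 0.13 to 0.564 CPM. Of the related lists, Igfbp3 rose (59.8 ± 22.6 to 181 ± 65.5 CPM, log2 1.6) and the hyaluronan synthase Has1 fell (4.26 ± 1.4 to 1.19 ± 0.646 CPM, log2 -1.79). Macrophage markers summed to 58.4 to 71.6 CPM with DMSO and 28.7 to 46.6 CPM with 3C, mural markers to 1720 to 2020 CPM and 1300 to 1400 CPM, and fibroblast markers to 13400 to 18200 CPM and 13700 to 18000 CPM. Lymphatic markers summed to 382 to 459 CPM with DMSO and 262 to 314 CPM with 3C. The part of these marker genes' cells in the Plvap and Tek changes was not tested.

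**Figure D5:**
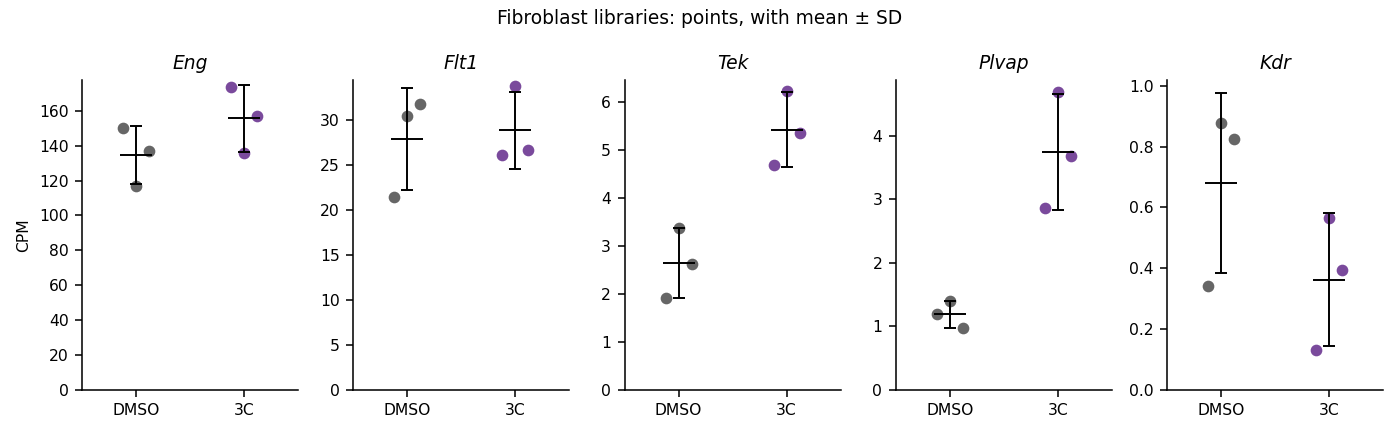
Levels of Eng, Flt1, Tek, Plvap and Kdr in skin fibroblast libraries with DMSO and with 3C, in CPM, as points for the 3 libraries of each group with the mean and SD. Tek and Plvap do not overlap between the groups, and Eng, Flt1 and Kdr do.

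How the genes vary from library to library was described over the 32 kidney and liver libraries after taking away the mean of each group. Libraries share depth and scaling, so these Pearson correlations are a description only. Among the 28 pairs of the 8 members other than Stab2 and Lyve1 they ran from -0.3 (Flt1 and Plvap) to 0.89 (Kdr and Flt1), with a median of 0.32. Among all other genes with a mean of at least 1 CPM, Flt1 was most like Amotl1 (0.93) and Mid2 (0.92), Kdr was most like Flt4 (0.91) and Ets1 (0.9), and Cdh5 was most like Ppp1r9b (0.89) and Csf1r (0.88). Tek followed Dock4 (0.89) and Ptprb (0.88), Plvap Itgb5 (0.85) and Myl12a (0.79), Pecam1 Emp2 (0.79) and Nrp2 (0.74), and Eng Sox18 (0.75) and Cd248 (0.69). Stab2 was nearest to Slc43a2 (0.76) and Slc7a8 (0.74), Emcn to Gpx8 (0.73) and Hsd11b1 (0.69), and Lyve1 to Dcn (0.65) and Btbd10 (0.64). Stab2 and Lyve1 correlated with the 8 other members at a median of 0.35 and 0.28.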

How the data were processed

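The 50 samples, grouped by their labels into 14 groups, gave 38 gene count tables and 12 ATAC-seq peak lists. For RNA-seq the authors used Trimmomatic 0.39, then Hisat2 2.2.1 on mm10, then HTSeq-count 0.12.4 without strand. The deposited values are counts, not normalized. Since strand was not used, reads in exons shared by genes of opposite strand cannot be told apart by strand. Such overlap touches 1.61% of the Stab2 exons and 1.51% of the Eng exons. The files hold a tally of ambiguous reads, which are counted to no gene. The tallies of reads not counted to a gene were left out. The tally of reads aligned at more than 1 place was above 0 in the untreated libraries and at 0 in the DMSO, 3C and fibroblast libraries, so no test was run across these series. ATAC-seq reads went through Bowtie2 2.3.5.1, and the authors ran MACS2 on each library alone. Deposited per peak are a ratio, the fold enrichment, and −log10 p and −log10 q values.

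The 9 comparisons were each fitted on their own libraries, and 2 interactions on 16 each, in edgeR 4.0.16 (R 4.3.3) with TMM factors, filterByExpr (minimum count 10) and the two-sided quasi-likelihood test, with p adjusted over all genes tested. Calls needed an adjusted p under 0.05 with a fold above 2 or below 0.5, and interactions at an adjusted p under 0.05. Limma 3.58.1 was loaded with edgeR. Alternatives were DESeq2 1.42.0, other scaling and filters, the adjusted p alone, an exon length trend removed, a replicate block, and fits that omit each library in turn. The fits were tested on simulated counts with 200 genes changed by a fold of 4, of which 192 to 199 were recovered per comparison. No 2 libraries of a group were alike within counting noise (54 pairs).

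All 4 same-numbered pairs deviated together at an r above 0.1 only in the young kidney and liver comparison (r 0.104 to 0.452). With 3C the kidney and liver pairs came near that (r 0.094 to 0.218, 3 of 4 above 0.1), and with DMSO they ran from 0.012 to 0.126. Whether these libraries share an animal is not given by the labels. In each of these comparisons the block left the calls of the endothelial genes as they were.

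The genes and all lists were chosen with earlier results of these data known. The rule was to name all 10 genes in every comparison, and some are given only by a range or a count. Of each list up to 4 called genes with the smallest p are named, and for each member the 2 genes with the highest Pearson r of log2 CPM less the group mean. Genes singled out beyond that rule (Angpt1, Clec4g and Gata4 by their levels in ageing, Prox1, Clec4f, Pdpn, Pi16, Igfbp3 in ageing kidney and the reads per Cdh5 read) were chosen after their values were seen. Levels per kb used exon lengths of GENCODE vM21. Lists as sets, promoters and levels carry no test, while single genes of the lists were tested in the same fits as the members.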

Additional observations from a re-analysis of the deposited data

Results flagged for a closer look

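Among 80 groups of 4 libraries (10 genes in 8 tissue groups) 6 held a library far from the other 3 by Dixon's test at its 95% critical value, and chance gives about 1 in 20. Emcn in kidney DMSO replicate 3 was at 51.1 CPM against 55.6, 56.0 and 56.3 CPM in the other 3. Emcn in liver DMSO replicate 1 was at 3.78 CPM against 2.24, 2.39 and 2.49 CPM, and Lyve1 in the same library was at 6.17 CPM against 3.66, 3.9 and 3.91 CPM. Eng in kidney DMSO replicate 2 was at 169 CPM against 191, 193 and 194 CPM. Plvap in liver 3C replicate 1 was at 44.1 CPM against 76.4, 78.5 and 79.3 CPM. Stab2 in old liver replicate 1 was at 45.1 CPM against 84.7, 86.2 and 90.4 CPM.

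The change of Lyve1 with age differed between the tissues by -2.68 on the log2 scale (liver less kidney, SE 0.45, adjusted p = 0.0074, edgeR interaction), with values higher in 4 of 4 old kidney libraries and lower in 4 of 4 old liver libraries than in every young library of the same tissue.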

How the results depend on the processing

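Of 372 recomputed counts of called endothelial genes 346 stayed within 1.5 times the reported count and 26 moved. For kidney age, 1 gene was called higher with the adjusted p alone and 1 with DESeq2, and 0 lower with the exon length trend removed. Leaving out 1 library gave 0 to 1 higher and 0 to 1 lower in kidney age, 0 to 1 lower in liver age, 0 to 2 higher in fibroblasts, 1 to 2 higher in old kidney over old liver and 0 to 1 higher in the interaction of age and tissue. With the replicate block 0 genes were called lower in liver age (Lyve1 -1.26, adjusted p = 0.0503, edgeR), where the numbers are shared but do not pair the libraries, and no other count of these genes was moved by the block. For kidney over liver, the adjusted p alone gave 5 genes higher in kidney in young and 4 in old mice, and library size alone gave 5, 6, 8 and 8 in young, old, DMSO and 3C. Promoter peaks at a −log10 q of at least 5 were in all 3 libraries for 1, 1, 0 and 2 genes. Signs turned in some settings, and not only for values near 0. In kidney age they turned for Flt1 (0.01, exon length trend) and Cdh5 (-0.08 to 0.14 when leaving out 1 library). They turned in liver age for Pecam1 (0.07, 0.02 and 0.01 with library size alone, a mean of at least 1 CPM and the exon length trend, and -0.08 to 0.07 when leaving out 1 library), Flt1 (-0.1 to 0.31) and Stab2 (-0.06 to 0.24). They also turned for fibroblast Flt1 (-0.09 to 0.17), for Plvap in the interaction (-0.16 to 0.1) and for Kdr with 3C (-0.14 with the exon length trend, -0.09 to 0.24 when leaving out 1 library). With library size alone they turned for Cdh5, Kdr and Eng in young mice (0.56, 0.83 and 0.95, against -0.51, -0.24 and -0.13) and Cdh5 in old mice (0.08 against -0.98). The cause was not tested.

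Counts over all genes moved by over 1.5 times in 64 of 372 recomputations. Examples are 487 (adjusted p alone) and 105 (DESeq2) lower in kidney age against 59, 483 (DESeq2) and 91 (replicate block) higher in liver age against 212, 112 (DESeq2) lower in liver age against 55, 327 and 240 in fibroblasts (adjusted p alone) against 166 and 85, and 7693 to 7812 higher in kidney and 1124 to 1270 higher in liver (library size alone). The interaction of age and tissue gave 335 and 405 genes with DESeq2, 53 and 49 with the replicate block and 66 higher with library size alone. Depth limits Lyve1 in kidney, where libraries held 2 to 91 reads of it, and the 5 genes in fibroblasts that were not tested, with 0 to 13 reads.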
